A study of Mus musculus with 321 samples.

Results

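Type 2 vomeronasal receptor genes, symbols Vmn2r followed by digits, were examined in the mouse genome for repressive histone marks, open chromatin and binding of the transcription factor Tcf-1. They were chosen by symbol and by annotation as protein-coding in the GRCm38.p6 gene table. This gave 52 genes on chromosome 7, 31 on chromosome 17 and 39 on the other chromosomes, which together are 0.56% of the 21779 protein-coding genes they were set against. Vmn2r122, which the table places on an unlocalised chromosome 4 scaffold, was not analysed here. Vmn2r genes encode class C G protein-coupled receptors of sensory neurons in the basal layer of the vomeronasal organ, which detect peptide and protein pheromones. Each such neuron uses few of them, together with a broadly expressed co-receptor from the group Vmn2r1 to Vmn2r7, and signals through the G protein subunit Gnao1 and the channel Trpc2. Neither fibroblasts nor thymocytes are known to use these receptors, and the cells studied here are of those kinds. H3K9me3 is a histone mark of compacted constitutive heterochromatin, H3K27me3 is the mark of Polycomb repression, and ATAC-seq maps chromatin that is open to a transposase.

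The study asked how Tcf-1, a T cell transcription factor encoded by Tcf7, relates to chromatin. NIH3T3 fibroblasts, a mouse embryonic fibroblast line of NIH/Swiss origin, gave H3K9me3 ChIP-seq (2 libraries), H3K27me3 ChIP-seq (2 libraries), and ATAC-seq after a retrovirus carrying Tcf-1 (Tcf-1 RV, 4 libraries) or an empty one (Empty RV, 4 libraries). Their labels name no drug, no promoter of the retrovirus and, for the histone libraries, no virus. For Tcf-1 binding, 1 list of 40562 summits was deposited for 2 Tcf-1 RV NIH3T3 libraries together. Its name tags it with day 2, as merged and as filtered on reproducibility between replicates (IDR), and it gives no value per replicate. CD4+CD8+ double-positive (DP) T cells sorted from mice gave ATAC-seq for the Tcf-1 KO (genotype TCF-1-/- deltaVII, 2 libraries) and for WT mice labelled C56BL/6 (2 libraries). The labels give no age and no further description of the allele, and do not say whether libraries came from separate cultures or animals, so p-values measure only the spread between these libraries. In Tcf7 (chr11:52246527-52283383) the Tcf-1 RV libraries held 7, 8, 5 and 7 ATAC peaks and the Empty RV libraries 1, 1, 2 and 5. The Tcf-1 KO DP libraries held 1 peak each in Tcf7 and the WT DP libraries 2 each, and such peaks do not show whether the deleted part is missing. All 10 listed fibroblast markers had a peak in at least 1 Tcf-1 RV and in at least 1 Empty RV library. The shares of all protein-coding genes were 64.3% and 63.1%. In all 4 Tcf-1 RV libraries 9 of the 10 had a peak (52.5% of all genes). In all 4 Empty RV libraries 4 of the 10 had one, which is near the 43.1% of all genes. All 10 DP thymocyte markers had a peak in at least 1 WT DP library, against 57% of all genes, and 9 had one in both. Of the 5 listed markers of vomeronasal sensory neurons, Gnao1, Gnai2 and Gng8, G protein subunits also used in other cells, were open in each of the 4 Tcf-1 RV libraries, in at least 3 of 4 Empty RV libraries and in both WT DP libraries. The defining Omp and Trpc2 had no peak in any of the 12 ATAC libraries.

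The members lay in 18 clusters, counting neighbours on a chromosome with gaps of at most 1 Mb as 1 cluster. Of these clusters 6 were single genes, and 11 held at least 3 members. Member gene bodies ranged from 8397 to 142676 bases with a median of 24641 bases, against a median of 17217 bases over all protein-coding genes. Many members are near copies of each other. Promoter sequences of RefSeq (GRCm38.p6) were matched by symbol for all but 6 members, and in the 250 bases before the start the median member was 91.3% identical to the nearest other member (range 56.7% to 100%). The sources used here do not say how reads with more than 1 possible origin were placed, and the part of read placement in the results was not tested.

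The following promoters show how alike members with and without H3K9me3 over the gene body can be. Vmn2r62 (chr7:42793497-42793746, minus strand) and Vmn2r126 (chr7:43018548-43018797, plus strand) had the same 250 bases and no H3K9me3. Their neighbour Vmn2r63 (chr7:42933790-42934039, minus strand), 92.1% identical to Vmn2r62, lay in H3K9me3 over 89.5% and 100% of its body in replicates 1 and 2. The start site of Vmn2r63 also lay in islands of both replicates. Capitals mark bases that differ from Vmn2r62 in the alignment, and bases missing from Vmn2r63 are not marked.

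Vmn2r62 and Vmn2r126: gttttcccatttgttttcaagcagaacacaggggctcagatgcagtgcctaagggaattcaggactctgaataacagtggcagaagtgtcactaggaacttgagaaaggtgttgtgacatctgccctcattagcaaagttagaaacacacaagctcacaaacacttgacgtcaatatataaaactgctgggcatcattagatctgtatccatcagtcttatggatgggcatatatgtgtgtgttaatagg

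Vmn2r63: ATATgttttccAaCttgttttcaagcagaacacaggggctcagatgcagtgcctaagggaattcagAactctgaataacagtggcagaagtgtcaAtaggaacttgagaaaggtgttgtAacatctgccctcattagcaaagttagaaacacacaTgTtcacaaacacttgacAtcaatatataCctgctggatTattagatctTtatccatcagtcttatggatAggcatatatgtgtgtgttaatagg

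Vmn2r112 (chr17:22600898-22601147, plus strand) and Vmn2r116 (chr17:23384553-23384802, plus strand), the receptor of the male pheromone ESP1, were each other's nearest members at 98.8% identity. Vmn2r112 lay in H3K9me3 over 59.7% and 73% of its body, and Vmn2r116 over 0% in both replicates. The start site of Vmn2r112 itself lay outside the islands in both replicates. Capitals mark the 3 bases of Vmn2r112 that differ from Vmn2r116.

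Vmn2r112: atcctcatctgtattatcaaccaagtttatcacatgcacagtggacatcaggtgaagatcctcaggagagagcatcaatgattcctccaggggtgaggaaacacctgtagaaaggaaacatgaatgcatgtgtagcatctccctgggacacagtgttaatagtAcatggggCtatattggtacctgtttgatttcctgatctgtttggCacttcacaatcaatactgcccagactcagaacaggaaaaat

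Vmn2r116: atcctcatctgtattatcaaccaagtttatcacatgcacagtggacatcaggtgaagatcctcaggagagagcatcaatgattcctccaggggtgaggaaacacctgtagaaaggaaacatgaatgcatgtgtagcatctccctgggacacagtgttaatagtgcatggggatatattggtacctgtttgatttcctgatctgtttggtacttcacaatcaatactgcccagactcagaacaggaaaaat

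Vmn2r32 (chr7:7479974-7480223, minus strand) and Vmn2r49 (chr7:9992140-9992389, minus strand) stand for the largest cluster, which held almost no island. They had the same 250 bases, and neither had an H3K9me3 base. Vmn2r52 (chr7:10176287-10176536, minus strand), at the far end of the same cluster, was 82.9% identical to Vmn2r32 and lay in H3K9me3 over 80.2% of its body in both replicates. The start site of Vmn2r52 itself lay outside the islands in both replicates. Capitals again mark bases that differ from the first sequence.

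Vmn2r32 and Vmn2r49: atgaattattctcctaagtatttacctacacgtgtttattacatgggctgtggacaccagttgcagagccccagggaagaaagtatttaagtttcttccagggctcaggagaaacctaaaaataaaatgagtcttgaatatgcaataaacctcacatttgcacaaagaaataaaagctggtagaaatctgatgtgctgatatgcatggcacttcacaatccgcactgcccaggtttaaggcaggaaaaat

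Vmn2r52: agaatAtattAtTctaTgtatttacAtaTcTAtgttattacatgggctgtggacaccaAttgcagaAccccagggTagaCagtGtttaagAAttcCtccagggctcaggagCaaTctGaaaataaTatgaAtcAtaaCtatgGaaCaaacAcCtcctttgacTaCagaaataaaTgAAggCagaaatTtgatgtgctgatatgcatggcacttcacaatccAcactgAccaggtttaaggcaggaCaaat

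H3K9me3 islands lay over 37 members, counting a gene as covered when islands held at least 50% of its body in both replicates. That is 30.3% of the members, against 5.07% of all protein-coding genes (1104 of 21779). The whole body lay in islands in both replicates for 12 members (9.84%, against 2.42% of all genes), and no base did in either replicate for 59 members (48.4%, against 73.5%). At least 1 base did in both replicates for 55 members (45.1%, against 21.5%). In replicates 1 and 2, H3K9me3 islands held 35.4% and 36.9% of the bases of member gene bodies, against 9.68% and 10.54% of the bases of all protein-coding genes. The members with the whole body in islands were Vmn2r59, Vmn2r61, Vmn2r69, Vmn2r73, Vmn2r75, Vmn2r76, Vmn2r77, Vmn2r97, Vmn2r99, Vmn2r102, Vmn2r103 and Vmn2r104. The members nearest to the limit of 50% were Vmn2r20 (44.9% in both replicates) and Vmn2r22 (43.6% in both) below it, and Vmn2r101 (55.5% and 54.4%) and Vmn2r67 (92.4% and 54.9%) above it. With islands of at least 2-fold ChIP over control alone, 22 members (18%) and 2.61% of all genes were covered.

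H3K27me3 was nearly absent from the same genes. Vmn2r90 (chr17:17703941-17734167), with 58.9% and 51.8% of its body in H3K27me3 islands, was the only covered member, which is 0.82% of the members against 12.3% of all protein-coding genes. At least 1 H3K27me3 base lay in 4 members in both replicates (3.28%, against 24.8%), and 93.4% of the members had none in either replicate, against 71.4% of all genes. The next highest were Vmn2r9 with 20.9% and 45.1% and Vmn2r83 with 23.1% and 18.1%. Vmn2r90 stands at the edge of a chromosome 17 cluster that was otherwise rich in H3K9me3, and its own H3K9me3 share was 20.6% and 11.1%. Over member bases, H3K9me3 islands held 36.1% ± 1.10 and H3K27me3 islands 1.12% ± 0.274 (SD, n = 2 libraries each). The difference of 35 percentage points was larger than the spread of the replicates (exact permutation test, two-sided, p = 0.333, the smallest that 2 against 2 libraries can give). The marks come from different antibodies and island lists of different length (24147 and 26988 islands for H3K9me3, 46370 and 46690 for H3K27me3), so levels between marks describe what was called.

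**Figure D1:**
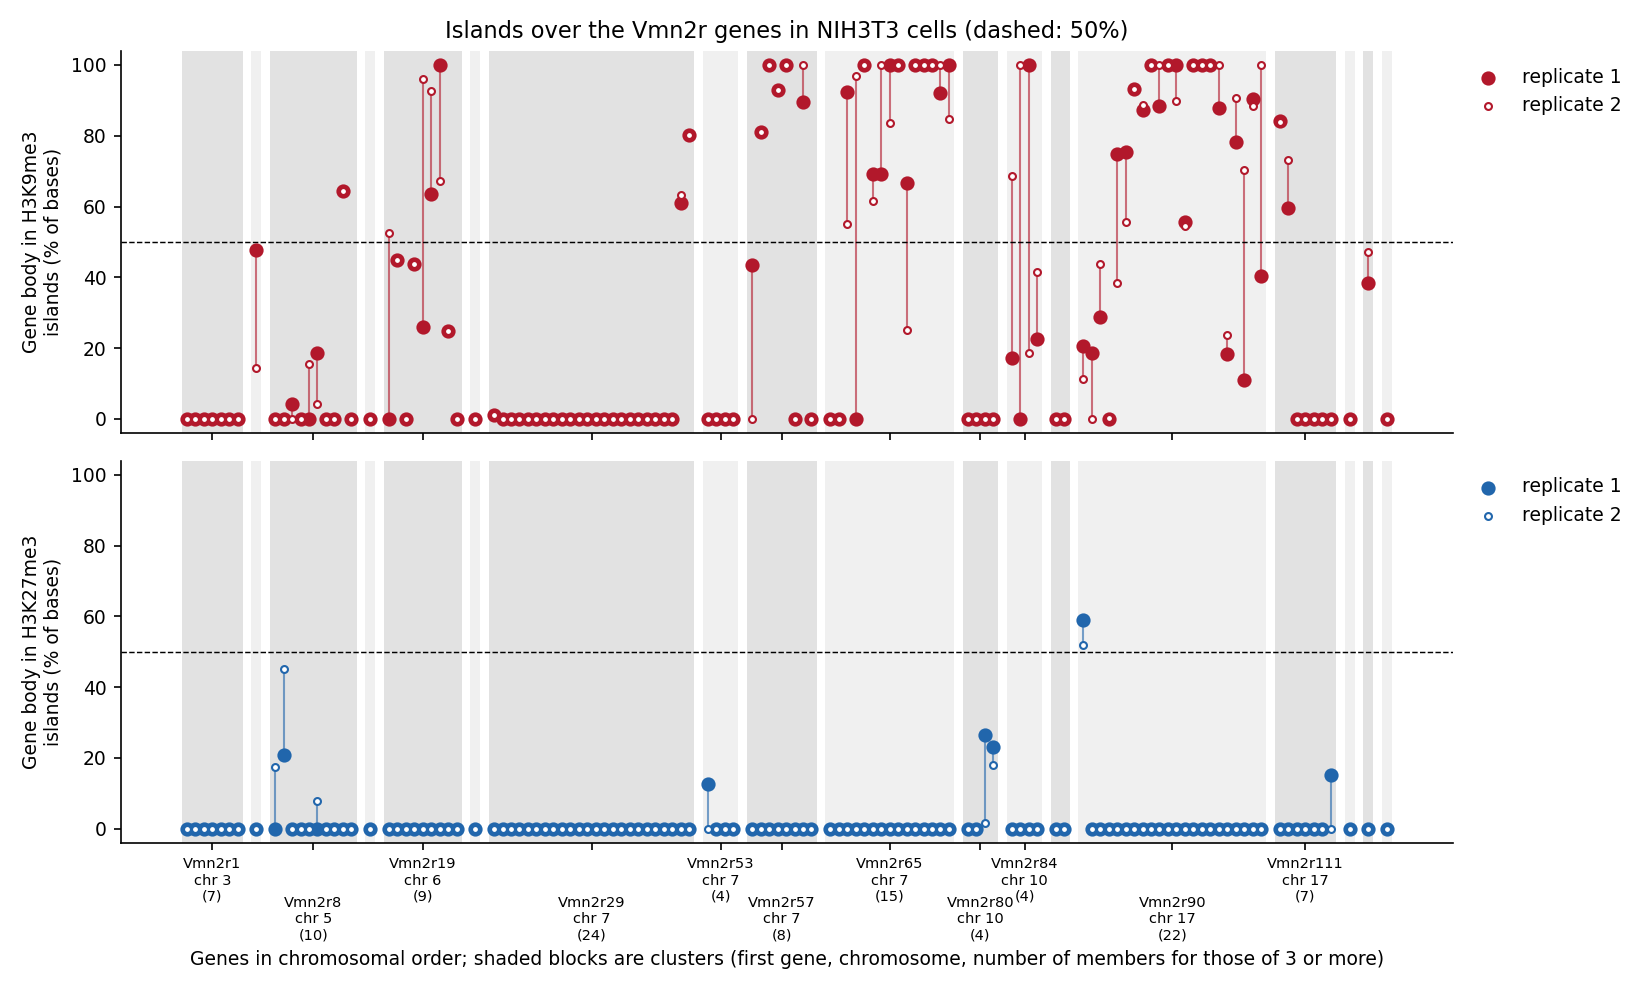
Percent of each Vmn2r gene body in H3K9me3 (top) and H3K27me3 (bottom) islands of NIH3T3 cells; each gene has a filled point for replicate 1 and an open point for replicate 2, joined by a line, and genes stand in chromosomal order in shaded clusters. H3K9me3 covers blocks of neighbouring genes and leaves whole clusters at 0, whereas Vmn2r90 alone passes 50% for H3K27me3 in both replicates.

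The H3K9me3 replicates gave like values for most members, but 59 members had 0% in both. For 16 members the replicates differed by over 20 percentage points, and 8 members had an island in 1 replicate only. At least 50% of the body was in islands for 40 members in replicate 1 and 44 in replicate 2, and the replicates fell on different sides of the limit for 10 members (8.2%, against 2.24% of all genes). Across the members, those without an island included, the shares of the replicates had a Pearson r of 0.863. It is a description only, since neighbours share islands. The replicates were farthest apart for Vmn2r85, in the cluster of 4 genes at chr10:130385800-130497379. Vmn2r85 had 0% and 100%, Vmn2r86 100% and 18.6%, Vmn2r84 17.1% and 68.7%, and Vmn2r87 22.6% and 41.4% of the body in islands of replicates 1 and 2. None of these 4 was counted as covered, although 48.4% and 69.7% of the cluster's span lay in islands.

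Islands that touched members had a median length of 32200 bases in replicate 1 and 29200 bases in replicate 2, against 8400 and 7600 bases for islands that touched any protein-coding gene and 10400 and 9600 bases for all islands of those libraries. A long island touches a gene more easily than a short one, and gene length differs between these sets, so the lengths are a description. Their median fold of ChIP over control, as the authors deposited it, was 2.06 and 2.09 on members, against 2.24 and 2.17 on protein-coding genes and 2.14 and 2.09 for all islands. Control reads per kb had medians of 30.7 and 30.6 in islands on members, against 34.1 in each replicate on protein-coding genes and 32.2 in each replicate for all islands. The longest were an island of 384 kb in replicate 1 that touched Vmn2r99, Vmn2r100 and Vmn2r101, and an island of 395 kb in replicate 2 that touched Vmn2r101, Vmn2r102 and Vmn2r103. Members that share an island are not separate measurements of it.

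Most of the covered genes came from 3 clusters, singled out here after their values were seen. They held 45 members, of which 30 were covered (66.7%), whereas the other 15 clusters held 77 members, of which 7 were covered (9.09%). The cluster at chr7:84940169-87037968, Vmn2r65 to Vmn2r79, had 11 of 15 members covered and 79.3% and 80.2% of its span in islands. In it Vmn2r69 was covered whole in both replicates, and Vmn2r65 and Vmn2r66 at one end had no island. The cluster at chr17:17703941-20596259, Vmn2r90 to Vmn2r110 with Vmn2r124, had 14 of 22 members covered and 78% and 78.2% of its span in islands. In chromosomal order, every member from Vmn2r93 to Vmn2r105 was covered. Vmn2r94, with 74.9% and 38.4%, lies before Vmn2r93 and was not covered. Vmn2r92 had the lowest shares of the cluster, 0% and 0.214%. The cluster at chr7:41399732-43048106, Vmn2r57 to Vmn2r63 with Vmn2r126, had 5 of 8 members covered and 77.9% and 78.7% of its span in islands. Vmn2r59 was covered whole there, while Vmn2r62 and Vmn2r126, the pair of equal promoters shown above, had no island base. On the side of lower coordinates the next 1 Mb was still fuller, with 94.3% and 95.9% in islands.

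Other clusters were bare or divided. The largest by number, chr7:7212996-10176286 with Vmn2r29 to Vmn2r52, had 3.10% and 3.60% of its 2.96 Mb span in islands, and 21 of its 24 members had none in either replicate. Its covered members Vmn2r51 (61% and 63.2%) and Vmn2r52 lay at the end that borders a flank with 52.4% and 57.6% in islands. This cluster also had no H3K27me3 island in its span, and the promoters of its members had a median identity of 98.8% to the nearest member. The cluster of the co-receptors Vmn2r1 to Vmn2r7, chr3:64078172-64719602, had no H3K9me3 base in any of its 7 members, and 1.12% and 2.74% of its span in islands. Promoter identity was lower there, with a median of 76% for 6 of the 7, and Vmn2r1 was 56.7% identical to its nearest member. The 4 members Vmn2r53 to Vmn2r56 (chr7:12581470-12733320) had no H3K9me3 base in their span, between flanks with 45% and 48.5% and with 16.7% and 23.1%. The 4 members Vmn2r80 to Vmn2r83 (chr10:79148816-79492154) had none in their bodies either.

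In the remaining clusters the mark covered some members and left others without an island. Vmn2r111 (84.2% and 83.9%) and Vmn2r112 were covered at one end of chr17:22547941-23479597, and Vmn2r113 to Vmn2r117, with Vmn2r116 among them, had no island. The flank beside Vmn2r111 held 65.6% and 67.2%, and the opposite flank 9.72% and 8.20%. In chr6:123308333-124231784, Vmn2r24 (63.5% and 92.5%) and Vmn2r25 (100% and 67.1%) were covered, Vmn2r26, a receptor known to respond to MHC class I peptides, had 24.8% in both replicates, and Vmn2r21 had none. In chr5:108797193-109453387 Vmn2r16 was the only covered member, with 64.5% in both replicates, and Vmn2r11 and 5 others had no island. With islands of at least 2-fold ChIP over control alone, Vmn2r112 stayed covered, but Vmn2r111, Vmn2r24, Vmn2r25 and Vmn2r16 did not. Nor did Vmn2r51 and Vmn2r52 of the largest cluster.

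Within the rich clusters single members still differed. Vmn2r67 (92.4% and 54.9%), Vmn2r70 (69.2% and 61.5%), Vmn2r71 (69.2% and 100%), Vmn2r72 (100% and 83.7%), Vmn2r78 (92% and 100%) and Vmn2r79 (100% and 84.6%) were covered in part. Vmn2r68, with 0% and 96.9%, and Vmn2r74, with 66.7% and 25.1%, passed the limit in 1 replicate each. On chromosome 17, Vmn2r95, Vmn2r96 and Vmn2r109 lay between 87.2% and 93.3% in both replicates, whereas Vmn2r106 had 18.2% and 23.7%. Near its upper end Vmn2r108 had 10.9% and 70.3% and Vmn2r110 40.4% and 100%.

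Of the members outside the 11 clusters, none was covered. Vmn2r129 on chromosome 4 had 47.6% and 14.3% of its body in H3K9me3 islands, and Vmn2r120 on chromosome 17 had 38.3% and 47.1%. The pair on chromosome 14, Vmn2r88, known as a receptor for haemoglobin, and Vmn2r89, had 0% in both replicates. Vmn2r18, Vmn2r28, Vmn2r118 and Vmn2r121 also had no island in either replicate, and none of these 8 had an ATAC peak in any library.

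**Figure D2:**
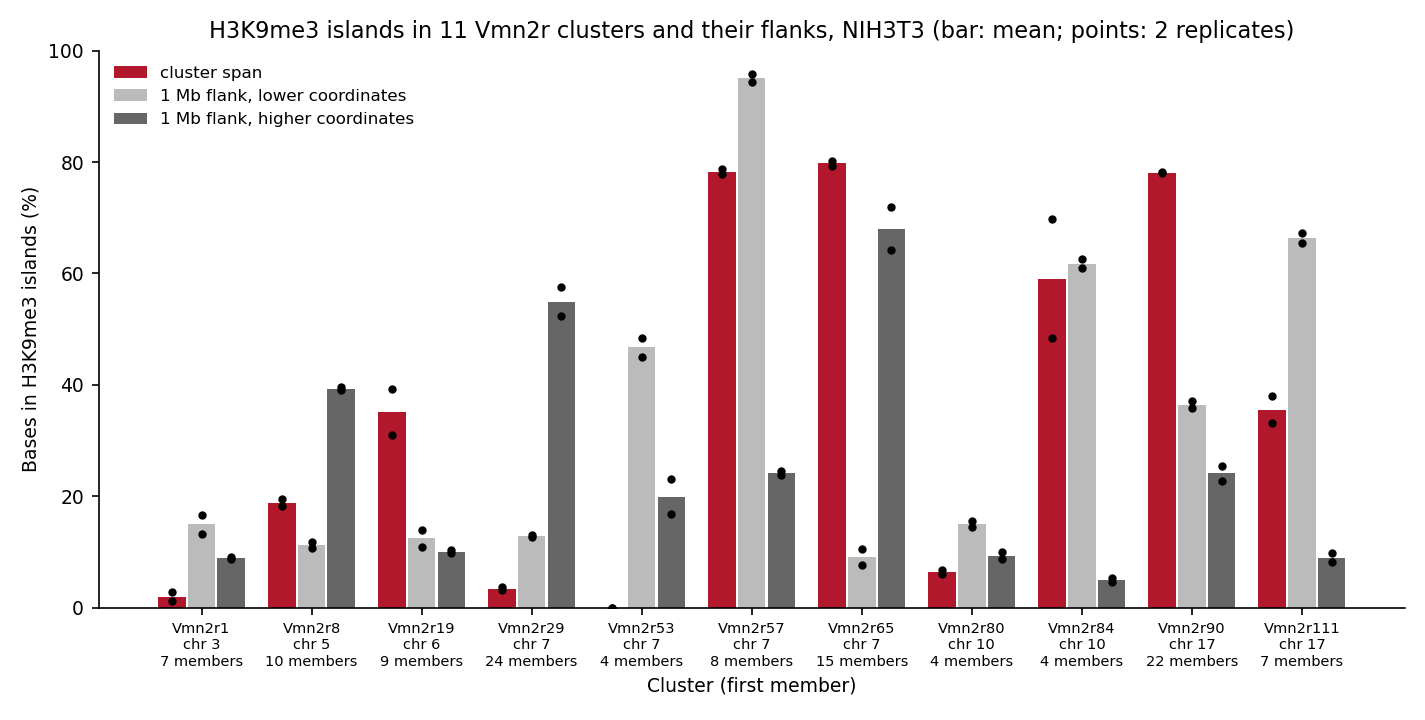
Percent of bases in NIH3T3 H3K9me3 islands in the span of each of the 11 clusters of at least 3 members (left bar of each group) and in the 1 Mb on either side; bars are means and points the 2 replicates. The spans starting at Vmn2r57, Vmn2r65 and Vmn2r90 reach 77.9% to 80.2%, while those starting at Vmn2r29 and Vmn2r53 stay at 3.60% or less beside richer flanks.

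The mark was not confined to Vmn2r genes within these spans. Of 43 other protein-coding genes inside the cluster spans, 24 (55.8%) were covered by H3K9me3. They included 9 of the 16 others in the Vmn2r65 cluster, 15 of which are odorant receptor genes, and 8 of the 9 in the Vmn2r57 cluster, where 5 are zinc finger genes. Among Vmn2r pseudogenes 35.5% were covered. Of the related families, 10.53% of the Vmn1r genes (the receptors of the apical vomeronasal layer), 24.1% of 1105 Olfr genes (odorant receptors) and 26.2% of 367 Zfp genes (zinc finger proteins) were covered. Vmn1r and Olfr bodies have medians of 924 and 951 bases and so are more easily covered or missed whole than Vmn2r bodies. Open chromatin set the Zfp genes apart: 4.92% of the Vmn2r members, 1.32% of the Vmn1r, 1.63% of the Olfr and 87.5% of the Zfp genes had an ATAC peak in at least 1 of 12 libraries. Family values are given side by side with no test, since neighbours share islands.

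**Figure D3:**
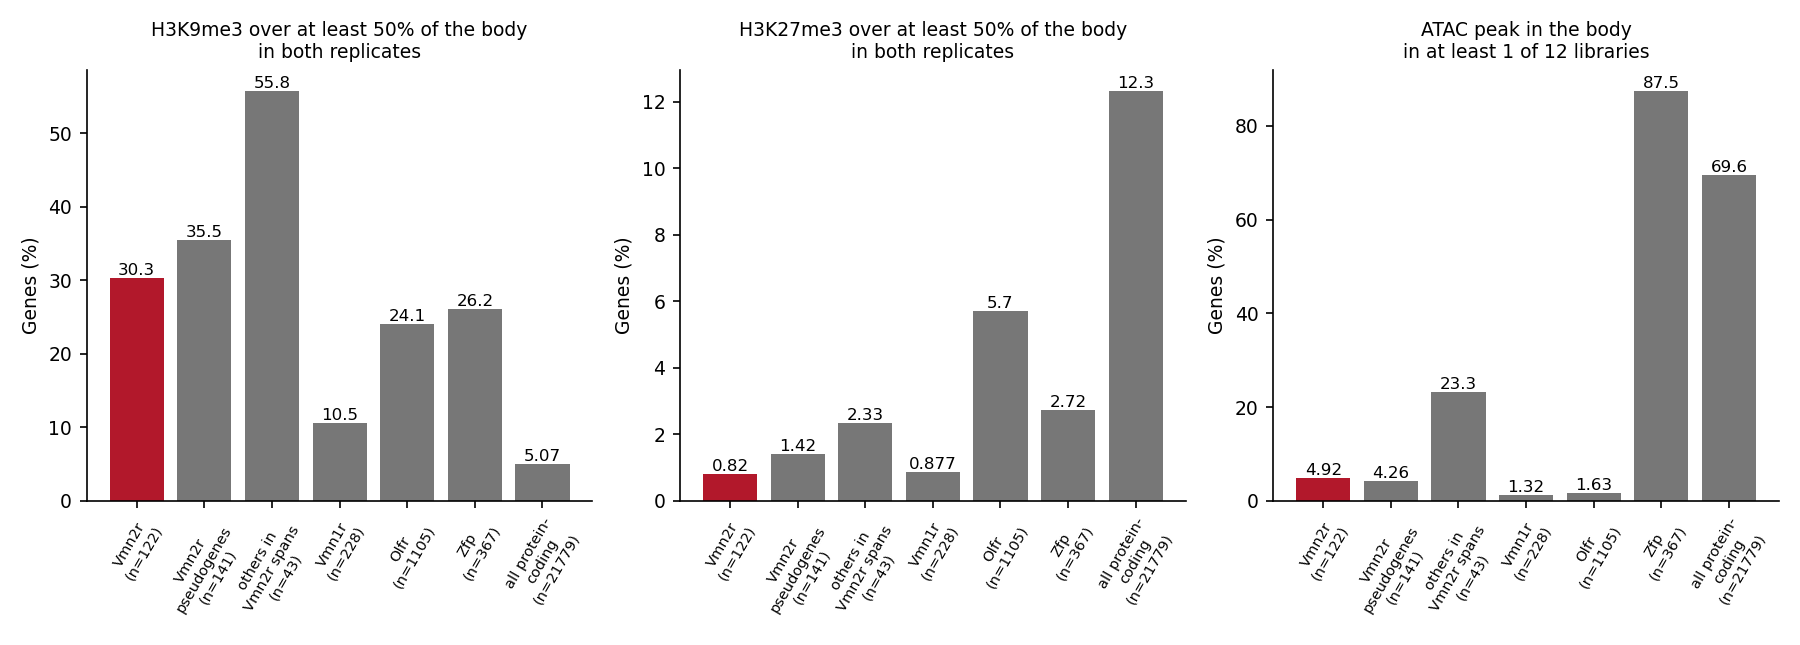
Percent of genes of each family covered by H3K9me3 (left) or H3K27me3 (middle) islands over at least 50% of the body in both NIH3T3 replicates, and percent with an ATAC peak in at least 1 of 12 libraries (right). Vmn2r genes, at 30.3%, 0.82% and 4.92%, have more H3K9me3 but less H3K27me3 and fewer peaks than all protein-coding genes at 5.07%, 12.3% and 69.6%.

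Genes that act with the receptors were near the background for both marks. None of the 17 listed vomeronasal signalling and co-expressed genes was covered by H3K9me3, against 5.07% of all genes, and 2 were covered by H3K27me3, against 12.3%. These were H2-M10.6, a nonclassical MHC class I gene of vomeronasal neurons, with 100% in both replicates, and Tfap2e, a transcription factor of basal vomeronasal neurons, with 67.4% and 71.4%. Trpc2 had 33.9% and 39.7% of its body in H3K27me3 islands and none in H3K9me3 islands. H3K9me3 islands of both replicates reached Gnao1, over 9.04% and 7.79% of its body, and Bcl11b, a transcription factor, over 3.41% and 3.84%. Of 15 class C receptor relatives outside the vomeronasal organ, 2 were covered by H3K9me3, the glutamate receptor genes Grm5 (68.6% and 81.1%) and Grm7 (93.2% and 94.9%). H3K27me3 covered 3 of them, among which Grm4 had 95.6% and 93.9%.

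At promoters, as over gene bodies, members had more H3K9me3 and less H3K27me3 than the background, but not always in the same members. The covered members Vmn2r16, Vmn2r52, Vmn2r67, Vmn2r93, Vmn2r95, Vmn2r96 and Vmn2r112 had their start outside H3K9me3 islands in both replicates. Vmn2r22, Vmn2r74, Vmn2r108, Vmn2r110 and Vmn2r129 were not covered but had their start inside in both, as did Vmn2r29 for 1 of its 2 starts. Of the start sites of members (1 each, and 2 for Vmn2r29), 29 lay in H3K9me3 islands of both replicates, which is 24.8%, against 7.03% of 32851 start sites in the table. None lay in H3K27me3 islands of both replicates, against 13.7% of all. No promoter window of 300 bases of a member touched an ATAC peak of any of the 12 libraries or a Tcf-1 summit, whereas 40.1% of all windows touched a peak. The letters CTTTGAT or their reverse complement, the core that Tcf-1 is known to bind, were in 1 member window (Vmn2r16) of the 250 bases before the start, which is 0.855%, against 3.21% of all. With the 50 bases after the start included the shares were 15.4% and 3.73%, and since members are related by descent, shared letters are not separate occurrences. No overlap with another motif was examined.

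Members with the most alike promoters had no H3K9me3, but likeness did not order the rest. All 11 members whose 250 bases equalled those of another member had no H3K9me3 base in the body. Of 12 members at 98% to below 100%, 2 were covered, Vmn2r111 and Vmn2r112, and 8 had no island. At 90% to below 98%, 10 of 38 were covered, at 80% to below 90%, 19 of 36, and below 80%, 4 of 19. Among the 19 least alike members 9 had no island, including Vmn2r1, Vmn2r2 and Vmn2r3. These classes were chosen after the values were seen, and members of a class can share a cluster, as 9 of the 11 with an equal promoter do in the cluster of Vmn2r29 to Vmn2r52.

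**Figure D4:**
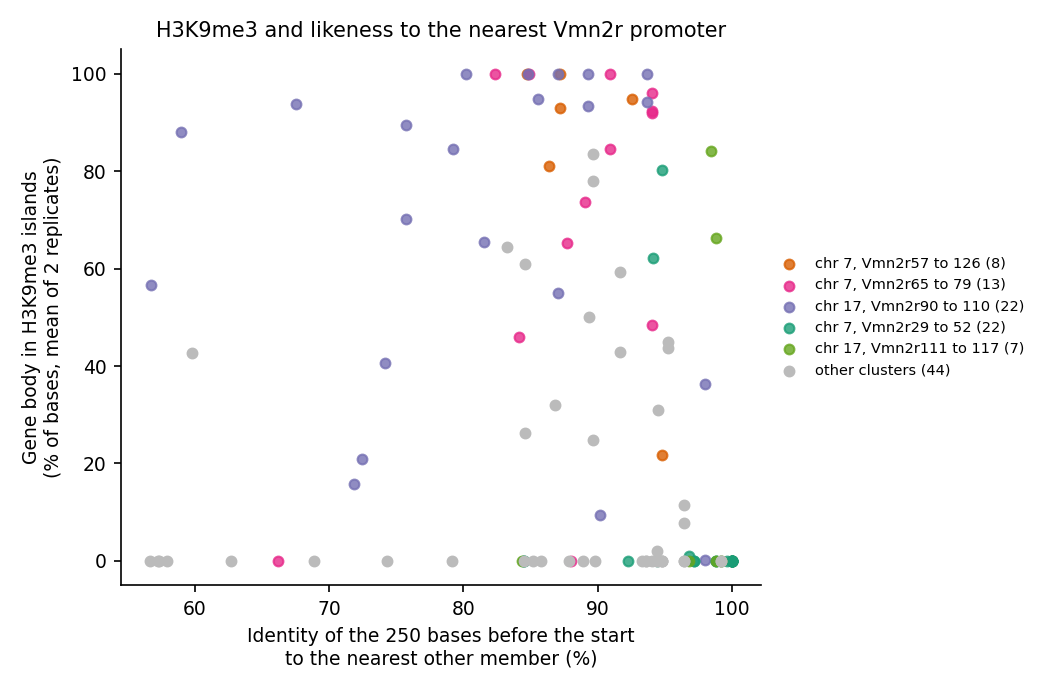
Mean percent of the gene body in H3K9me3 islands (2 NIH3T3 replicates) against identity of the 250 bases before the start to the nearest other member, for the Vmn2r genes with a promoter sequence; colours mark 5 clusters. The 11 genes at 100% identity lie at 0%, and covered genes run from 58.9% to 98.8% identity.

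Few members had open chromatin. A peak lay in 5, 4, 1 and 3 members in the Tcf-1 RV libraries and in 2 members in each of the 4 Empty RV libraries. In all, 6 members (4.92%) had a peak in at least 1 of the 12 libraries, against 69.6% of all protein-coding genes. At least 1 Tcf-1 RV library had it for 5 members (4.1%, against 64.3%) and at least 1 Empty RV library for 3 members (2.46%, against 63.1%). Tcf-1 RV libraries averaged 3.25 ± 1.71 members and Empty RV libraries 2 ± 0 (SD, n = 4 each). The difference of 1.25 members did not exceed the spread between libraries (exact two-sided permutation p = 0.314, where 0.0286 is the smallest possible). Tcf-1 RV replicate 3 decided this: without it the difference was 2 and the exact permutation p 0.0286. That library had the fewest peaks of its group, 36583, against 43527 to 62639 in the other Tcf-1 RV and 22778 to 58026 in the Empty RV libraries. With the same number of widest peaks from every library (22789, the smallest list with peaks outside the main chromosomes counted) the difference was 0.25 (exact permutation p = 1). The deposited names tag replicates 1 and 2 of both groups with day 2 and replicates 3 and 4 with day 4. Within day 2 the difference was 2.5 and within day 4 it was 0, with 2 against 2 libraries each and 0.333 as the smallest exact permutation p.

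Vmn2r13 was the one member open in every NIH3T3 library, a state found for 52.5% of all genes in the 4 Tcf-1 RV and 43.1% in the 4 Empty RV libraries. It had 3, 3, 2 and 4 peaks in the Tcf-1 RV libraries and 1, 2, 3 and 3 in the Empty RV libraries, so the groups overlapped. The gene occupies chr5:109156068-109192107 on the minus strand, and the peak found in all 8 libraries lay about 33 kb after its start, near its far end. Vmn2r13 was also the only member with Tcf-1 summits in its body, which is 0.82% of the members, against 31.6% of all genes. Its 3 summits, at positions 109159054, 109159839 and 109160447, had scores of 79, 45.9 and 3.55 on the authors' scale, the first of them at percentile 93.3 of the list. That first summit lay within the peak present in both Tcf-1 RV and Empty RV libraries.

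The other 5 members with a peak had it in some libraries only. Vmn2r1 had 1 peak in Tcf-1 RV replicates 1, 2 and 4 and none in the Empty RV libraries, about 18 kb after its start. Vmn2r78 had 1 peak in Tcf-1 RV replicates 1 and 2, and Vmn2r79 had 2 peaks in Tcf-1 RV replicate 1, both genes being covered by H3K9me3 and neither having a peak in an Empty RV library. Vmn2r85 had 1 peak in Tcf-1 RV replicates 1, 2 and 4 and in Empty RV replicates 1 and 2. Vmn2r24 had 1 peak in Empty RV replicates 3 and 4 and none in Tcf-1 RV libraries. A peak in at least 1 Tcf-1 RV and no Empty RV library was seen for 3 members (2.46%), against 2.52% of all genes, so this share was near the background, and no member was open in every Tcf-1 RV library while closed in every Empty RV one, against 0.0643% of all genes. A peak in at least 1 Empty RV and no Tcf-1 RV library was seen for 1 member (0.82%), against 1.29%.

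In DP cells no member had a peak. The count was 0 in both Tcf-1 KO DP and 0 in both WT DP libraries, while 40.2% and 41.9% of all protein-coding genes had a peak in the Tcf-1 KO DP libraries and 51.2% and 56.7% in the WT DP libraries. At least 1 Tcf-1 KO DP library had a peak in 44.4% of all genes, and at least 1 WT DP library in 57%. With 0 in all 4 libraries the difference was 0 (exact permutation p = 1), and the number of peaks called (11171 and 12209 in Tcf-1 KO DP, 23249 and 30985 in WT DP) limits what could be seen. Extending each gene by 5 kb added Vmn2r29 in both WT DP libraries and in neither Tcf-1 KO DP library. The same extension added Vmn2r29 in Tcf-1 RV replicates 1, 2 and 4 and in Empty RV replicates 2, 3 and 4. The share of all genes with a peak in the extended interval was not computed. The histone marks of DP cells were not analysed here, so the islands above describe NIH3T3 cells.

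**Figure D5:**
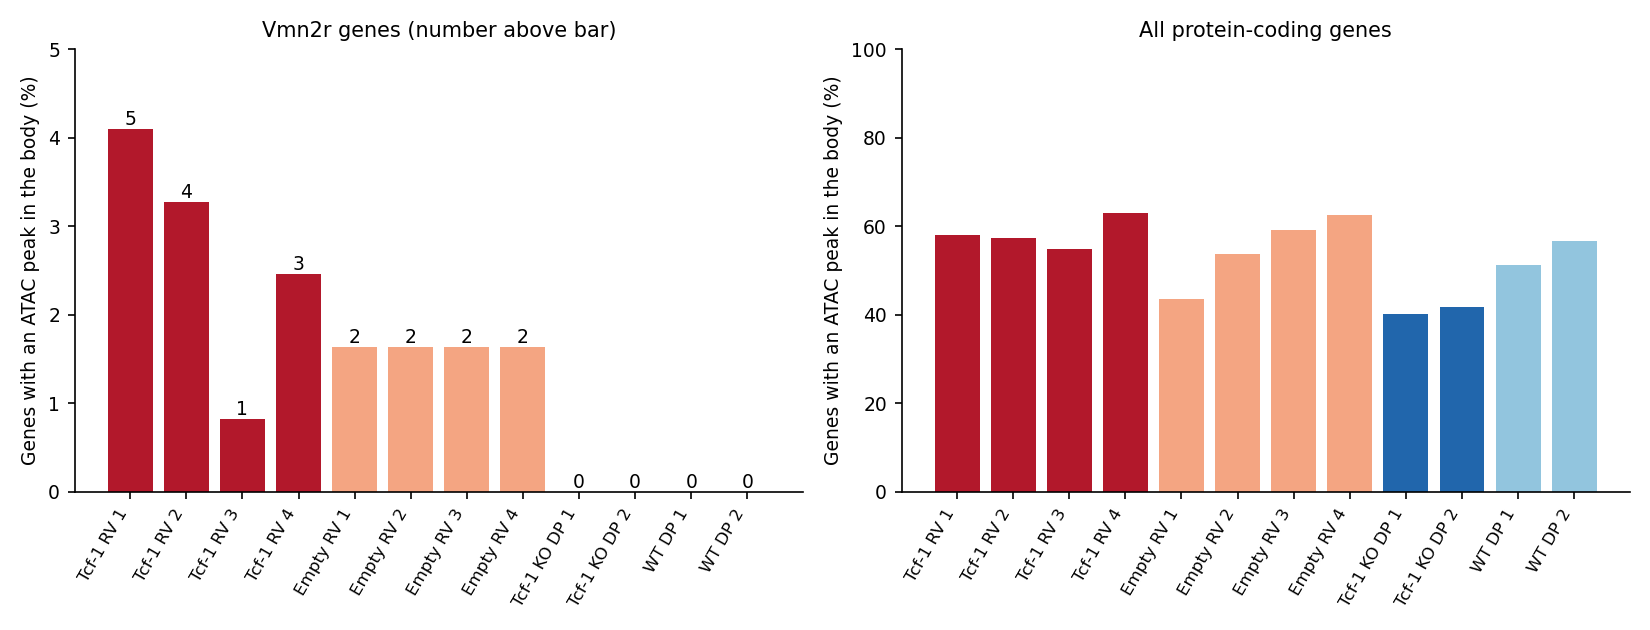
Percent of the Vmn2r genes (left, with their number above each bar) and of all protein-coding genes (right) with an ATAC peak in the body, per library, on axes of different range. Tcf-1 RV libraries have 1 to 5 members with a peak, Empty RV libraries 2 each, and Tcf-1 KO DP and WT DP libraries none.

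Open regions inside the cluster spans lay mostly outside the members, as did most bases of the spans. Member bodies held 3.2 Mb in all, whereas the spans of Vmn2r29 to Vmn2r52 and of Vmn2r90 to Vmn2r110 alone held 2.96 and 2.89 Mb. Merging the peaks of all 12 libraries gave 84 regions in the spans, of which 9 touched a member and 14 another protein-coding gene, 29 lay in H3K9me3 islands of both replicates and 21 held a Tcf-1 summit. Of the 84, 25 were present in all 8 NIH3T3 libraries, 20 in at least 1 DP library, and 7 in both WT DP and neither Tcf-1 KO DP library. The Tcf-1 KO DP libraries held fewer peaks in all (11171 and 12209) than the WT DP libraries (23249 and 30985). Shares over all merged regions of the genome were not computed, so every region count in these spans is a description only. In the whole span of Vmn2r29 to Vmn2r52 there were 2 regions, both in all 8 NIH3T3 libraries. A single region of the 84 was present in all 4 Tcf-1 RV and no Empty RV library. It lay between genes of the co-receptor cluster at chr3:64251489-64252001 and held a Tcf-1 summit. That cluster's span held 3, 3, 2 and 3 peaks in the Tcf-1 RV libraries and 0, 0, 1 and 0 in the Empty RV libraries, without overlap. The difference of 2.5 peaks had an exact permutation p of 0.0286, the smallest possible, and 0.314 after Benjamini-Hochberg adjustment over the 11 clusters. With 4 against 4 libraries, a single cluster at the smallest p with no other near it cannot get a lower adjusted value. The adjusted value therefore could not pass and decides nothing. With replicate numbers as a block the exact sign-flip p was 0.125, also the smallest possible. With the 22789 widest peaks per library the counts were 2, 1, 2 and 1 in Tcf-1 RV and 0 in each Empty RV library. In the other 10 clusters the adjusted exact permutation p was 1 with all peaks, and at least 0.786 with the widest peaks.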

How the data were processed

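ATAC-seq peaks (12 libraries), histone islands (4 libraries) and 1 pooled list of 40562 Tcf-1 summits were used, of a series of 321 samples. The symbol rule gave 123 of 21900 protein-coding genes, of which 122 lie on placed chromosomes. Per the submitters' processing notes MACS2, Picard, STAR 2.5, Bowtie2 2.2.9, Trim Galore and FastQC were used, and builds GRCh37, GRCm38 and mm10 are named, with no role or order. The ATAC lists that the authors deposited hold positions only, so the depth is unknown. The deposited SICER islands (called per library) hold a read count for ChIP and control, the ratio (fold) of these and a p-value. The deposited summits hold a score of unstated scale.

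Islands were merged per library and intersected with RefSeq gene bodies (GRCm38.p6) in Python 3.11.15 with pandas 2.3.3. Promoters were aligned end to end with edlib 1.3.9.post1, and identity is matches over alignment columns. Interval and test code was tested on simulated data. Tests between libraries were exact permutation tests, two-sided. Same-numbered NIH3T3 ATAC libraries deviated together (r of 0.187, 0.190, 0.125 and 0.260 over 77915 merged regions), which met the limit set for pairing, so a replicate block was tried. Other pairs of the same day tag were also positive (0.0646 to 0.194, the highest being Tcf-1 RV replicate 1 with Empty RV replicate 2) and pairs across day tags negative, so number and day tag cannot be told apart. In DP (r = -0.0505) and histone libraries (r = 0.00319) the numbers did not pair the libraries. Members named with values were those with a peak or summit, the highest and lowest by H3K9me3 in each cluster of at least 3, the 3 highest by H3K27me3, and Vmn2r1, Vmn2r26 and Vmn2r116; others were named after their values were seen. Members and lists were chosen with earlier results of these data known, and the tests per cluster, identity classes and comparison with islands on protein-coding genes were added after the values were seen. Planned protein identity could not be computed without protein sequences.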

Additional observations from a re-analysis of the deposited data

Results flagged for a closer look

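In groups of 4 libraries, 7 sets of peak counts held a library that stood apart from the other 3 by Dixon's criterion, which chance meets in about 1 of 20 groups. They are 2.61% of the sets examined, which covered every member and every cluster of at least 3. Only the 27 sets with unequal counts could be flagged, and all counts are small whole numbers. A set of 3 equal counts and 1 other is always flagged, so the 2.61% cannot be set against 1 in 20. Tcf-1 RV replicate 3 had 0 peaks in Vmn2r1, 0 in Vmn2r85, 2 in the span of the chromosome 3 cluster and 1 in the span of Vmn2r84 to Vmn2r87, each below the other 3 Tcf-1 RV libraries. Tcf-1 RV replicate 1 had 2 peaks in Vmn2r79, against 0 in the others. Tcf-1 RV replicate 4 had 9 peaks in the span of Vmn2r57 to Vmn2r126, against 5 in each of the others. Empty RV replicate 3 had 1 peak in the span of the chromosome 3 cluster, against 0 in the others. Tcf-1 RV replicate 3 had the fewest and replicate 4 the most peaks of their group. With the same number of widest peaks from every library, Tcf-1 RV replicates 1 to 4 had 5 peaks each in the span of Vmn2r57 to Vmn2r126, 2, 1, 2 and 1 in that of the chromosome 3 cluster, and 2, 1, 1 and 1 in that of Vmn2r84 to Vmn2r87.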

How the results depend on the processing

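Of 50 alternative values for the main results, 42 kept their direction, their side of the threshold or a count within 1.5 times. Some of these could not have come out otherwise. With 2 against 2 libraries no test could pass the threshold, and a DP difference of 0 had no direction to lose. Counted as kept were also the DP difference of -1 with 5 kb added and the Tcf-1 RV minus Empty RV difference of 0 within day 4. H3K9me3-covered members ranged from 27 to 55 when the share of the body, the adjusted p or the gene interval changed and from 40 to 44 with 1 replicate alone, but were 22 with islands of at least 2-fold. H3K27me3-covered members were 4 at 1 bp and 0 at 75% of the body, with islands of at least 2-fold, with adjusted p below 1e-10 and with 5 kb added. Members with a Tcf-1 summit were 2 with 5 kb added, Vmn2r13 and Vmn2r85. The H3K9me3 minus H3K27me3 difference ran from 34 to 36 without a replicate and was 22 with islands of at least 2-fold and 45 over whole spans. The Tcf-1 RV minus Empty RV difference ran from 0.667 to 2 without 1 library. With the replicate block its exact sign-flip p was 0.375, and that of the histone difference 0.5 (the smallest possible), so the block changed no call other than that of the chromosome 3 cluster span. Clusters numbered 20 with gaps of at most 500 kb and 15 with 2 Mb. Depth limits all peak counts, and no read depth is known.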
